A study of Mus musculus with 24 samples.

Results

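The comparison described here sets calorie-restricted (CR) against ad libitum fed (AL) mouse liver in the middle of the light phase, at zeitgeber time 6 h (ZT6, counted from lights on). It was chosen by diet and time labels alone, and rests on 4 of the 24 libraries of the series, 2 CR and 2 AL. All mice were C57BL/6 and 5 months old. The CR mice had received 30% fewer calories since the age of 2 months, for 3 months, and the AL mice ate freely. In every library the RNA was the poly(A) fraction found with polysomes, the messengers that carry several ribosomes. Total RNA was not analysed here, so the amount of a transcript and its loading onto polysomes cannot be told apart. In whole liver, fewer cells of a type and less RNA per cell cannot be told apart either. The sources used here do not give the feeding hours of the CR mice. The labels do not say that the 2 libraries of a group came from separate animals, so that p-values measure the spread between libraries, which may be technical.

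Liver genes follow hormones, the clock and sterols. Glucocorticoids act through a receptor that enters the nucleus and raises genes such as Fkbp5 and Per1, and together with feeding they help to set the phase of the liver clock. The clock itself is a loop in which CLOCK and BMAL1 bind E-boxes and raise their own repressors of the Per and Cry families, and it drives further genes through the factors DBP, TEF, HLF and NFIL3. Sex-biased liver genes follow the pattern of growth hormone secretion, with pulses in males and a steadier level in females. Sterols act on SREBP2, which raises the enzymes of cholesterol synthesis when sterols are low.

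The 4 libraries were not alike in make-up. CR library 1 held 16.5 M counted reads (M, mega) and CR library 2 held 19.7 M, against 30.1 M in AL library 1 and 18.7 M in AL library 2. Features that collect ribosomal RNA took 52.5% and 49.0% of the reads in CR libraries 1 and 2, against 1.02% and 40.9% in AL libraries 1 and 2. AL library 1 thus stood apart from the other 3. A gene was detected in at least 1 read for 16189 and 15194 genes in the CR libraries, and for 16992 and 15469 in the AL libraries. The hepatocyte markers fixed as a list, 12 of 12 tested, had reads in all 4 libraries. Albumin (Alb), for instance, stood at 38890 and 25628 CPM in the CR libraries, against 41398 and 30564 CPM in the AL libraries. CPM (counts per mega reads) are scaled for library composition. Replicates of either diet differed by far more than counting noise, with Spearman correlations across genes of 0.937 in CR and 0.954 in AL.

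Of 15490 genes tested, 60 differed between the diets at ZT6 (0.387%; edgeR's quasi-likelihood test, Benjamini-Hochberg adjusted p below 0.05), 26 higher in CR (0.168%) and 34 lower (0.219%). Among them, the glucocorticoid-linked Fkbp5 and the female-biased cytochromes Cyp2b9 and Cyp2b13 were higher in CR. The male-biased steroid enzyme Hsd3b5 and the major urinary proteins Mup16 and Mup17 were lower. Cyp2b9 and Cyp2b13 were high in CR library 1 alone, and without it their log2 fold changes were 0.30 and 0.13. All 60 genes had changed at least 2-fold, with a median size of 2.58 on the log2 scale. The CR and AL libraries did not overlap for 58 of them, against 41.8% of all tested genes, and Cyp2b13 and Slc22a26 were the exceptions. The 60 were picked by p from these same libraries, so neither the size of change nor this separation is separate evidence. Protein-coding genes made up 55 of the 60. Scaling without a composition factor called 6 genes higher and 4 lower. An unadjusted p below 0.05 was found for 2123 genes. The calls leaned on AL library 1: without it 2 genes were called, Fkbp5 and Hsd3b5, and the adjusted p of the other 58 lay between 0.192 and 0.593. All 60 kept their sign without that library. Of the 60, 22 were called without CR library 1, 21 without CR library 2 and 27 without AL library 2. With the ribosomal RNA ratio of each library as a covariate, 7 genes were called, and 6 of them belonged to the 60 (Fkbp5, Hsd3b5, Cux2, 1810053B23Rik, Nudt7 and St3gal5).

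**Figure D1:**
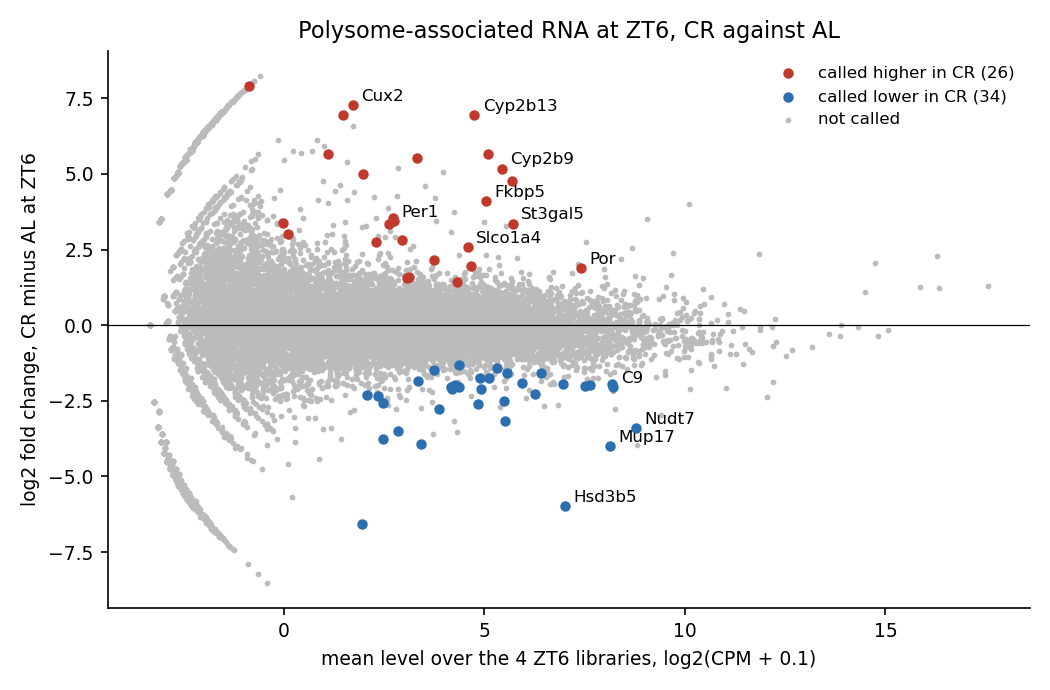
Each point is 1 of the 15490 tested genes; the horizontal axis gives its mean level over the 4 ZT6 libraries as log2(CPM + 0.1) and the vertical axis the fitted log2 fold change, CR minus AL. Red points are the 26 genes called higher in CR and blue points the 34 called lower; the arcs at the left are genes with reads in 1 diet alone.

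Fkbp5, a co-chaperone that dampens the glucocorticoid receptor and is itself raised by it, lies on chromosome 17 (chr17:28399094-28517527, minus strand, GRCm38). Its level was 41.8 and 81.5 CPM in the CR libraries, against 2.86 and 4.41 CPM in the AL libraries. Both CR libraries were far above both AL libraries, and the log2 fold change was 4.10 ± 0.47 (SE; adjusted p = 0.000227). The call held without each of the 4 libraries in turn, with log2 fold changes of 3.54 to 4.50. Per1, a repressor of the core clock and a glucocorticoid target, stood at 7.45 and 16.7 CPM in CR, against 1.18 and 1.02 CPM in AL (log2 fold change 3.44 ± 0.72, adjusted p = 0.0379). Of the 24 tested genes of a list of glucocorticoid targets, these 2 rose, none fell, and the list's median log2 fold change was 0.83, where 0.168% of all tested genes rose and their median was near 0. By library, the list's median relative to the AL mean was 0.13 in CR library 1 and 1.14 in CR library 2. The metallothionein Mt1 had 1634 and 311 CPM in CR, against 126 and 46.2 CPM in AL, without a call (adjusted p = 0.204). Tat, which breaks down tyrosine, had 299 and 673 CPM in CR, against 520 and 367 CPM in AL, and the diets overlapped. Most listed glucocorticoid targets thus gave no call beside Fkbp5 and Per1.

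Among clock genes the calls were few and of both signs. Of 15 core clock genes Per1 alone was called, and of 18 clock output genes Por was higher and Nfil3 lower. By comparison, 0.168% of all tested genes were called higher and 0.219% lower. Por, the reductase that hands electrons to all microsomal cytochromes P450, had 245 and 294 CPM in CR, against 72.5 and 72.7 CPM in AL (1.89 ± 0.35, adjusted p = 0.0246). Nfil3, a repressor that competes with DBP for D-boxes, had 7.62 and 6.51 CPM in CR, against 29.4 and 28.3 CPM in AL (-2.03 ± 0.40, adjusted p = 0.0307). The replicates of each diet were close for both genes. Without CR library 2 the adjusted p was 0.193 for Per1, 0.0639 for Por and 0.154 for Nfil3, and without CR library 1 it was 0.0725 for Nfil3. Usp2, a deubiquitinase with a clock-driven isoform, was just outside the threshold at 40.6 and 23.6 CPM in CR, against 3.74 and 3.77 CPM in AL (3.09, adjusted p = 0.0526). Ciart, a repressor of CLOCK and BMAL1, had 5.19 and 2.59 CPM in CR, against 1.07 and 0.256 CPM in AL (adjusted p = 0.107). Dbp, an activator at D-boxes, was high in CR library 1 only: 22.2 and 1.93 CPM in CR, against 1.76 and 1.34 CPM in AL. Tef, of the same family, had 82.9 and 32.7 CPM in CR, against 20.2 and 17.6 CPM in AL, so that both CR libraries were above both AL libraries (adjusted p = 0.123). Arntl, which encodes BMAL1, had 2.09 and 5.64 CPM in CR, against 2.83 and 2.30 CPM in AL, and Nr1d1, which encodes the repressor REV-ERB alpha, had 12.1 and 4.38 CPM in CR, against 15.4 and 6.65 CPM in AL. The diets overlapped for both. Nr1d2, which encodes REV-ERB beta, had 34.9 and 20.5 CPM in CR, against 20.2 and 13.1 CPM in AL, just without overlap and without a call (adjusted p = 0.401). Per2, unlike its paralog Per1, had 3.85 and 0.93 CPM in CR, against 2.50 and 2.88 CPM in AL.

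The starts of Fkbp5, Per1 and Ciart are shown because each holds an E-box, the site of CLOCK and BMAL1, spelled CACGTG and its own reverse complement. The sequences run from 250 bases before to 50 bases after the RefSeq start (GRCm38.p6), 5′ to 3′ on the gene's strand, with E-boxes in capitals. Fkbp5 is at chr17:28486100-28486399 (minus strand), Per1 at chr11:69098699-69098998 (plus) and Ciart at chr3:95882179-95882478 (minus).
Fkbp5: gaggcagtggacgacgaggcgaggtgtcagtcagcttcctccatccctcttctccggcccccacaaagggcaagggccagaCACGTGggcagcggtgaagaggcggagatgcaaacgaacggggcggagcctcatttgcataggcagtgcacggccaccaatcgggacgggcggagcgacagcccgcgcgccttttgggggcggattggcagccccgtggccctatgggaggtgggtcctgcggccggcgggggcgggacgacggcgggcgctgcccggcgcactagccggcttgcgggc
Per1: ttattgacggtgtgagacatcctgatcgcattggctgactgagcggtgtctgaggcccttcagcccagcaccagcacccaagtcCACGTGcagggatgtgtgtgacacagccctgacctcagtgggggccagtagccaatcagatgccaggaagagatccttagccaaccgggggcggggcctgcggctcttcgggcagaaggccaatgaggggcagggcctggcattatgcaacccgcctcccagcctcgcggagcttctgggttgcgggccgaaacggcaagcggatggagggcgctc
Ciart: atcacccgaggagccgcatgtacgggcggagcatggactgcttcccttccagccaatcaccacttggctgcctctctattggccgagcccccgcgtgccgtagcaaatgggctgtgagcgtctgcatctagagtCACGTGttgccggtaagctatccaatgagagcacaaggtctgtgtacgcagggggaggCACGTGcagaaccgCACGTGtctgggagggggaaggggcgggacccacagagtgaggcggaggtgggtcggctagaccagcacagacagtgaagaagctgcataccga
The E-box begins 169 bases before the start in Fkbp5 and 166 before it in Per1, and Ciart holds 3 of them. Per1 has a second start in the table, whose window (chr11:69099902-69100201) holds none. Such a match is a description of letters, not of binding. Among the other clock genes named above, no E-box was found for Por, Nfil3, Usp2, Dbp, Arntl, Nr1d1 or Nr1d2, and Tef held 1. Of the listed genes with a promoter, 4 of 12 core clock and 4 of 15 clock output genes held an E-box. An E-box was present in 6 of the 19 genes called higher that have a promoter in the table (31.6%) and in 1 of 27 called lower, against 8.09% of 27025 genes. The motif TTCNNNGAA of STAT5, which transmits growth hormone pulses, was in 5 of the 19 and 0 of the 27, against 9.55% of all genes. Of the other motifs searched, the D-box was in 1 of the 19 and 0 of the 27, and the ATF4 element in 1 of each. The glucocorticoid, DR1, cAMP and sterol elements were in 0 of either set, Fkbp5 and Per1 included. The glucocorticoid element was in 0.0111% of all genes.

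Sex-biased genes supplied 15 of the calls. Of 31 tested genes known as female-biased in mouse liver, 10 rose in CR and none fell, with a median log2 fold change of 3.11. Of 35 genes listed as male-biased, 4 fell and 1, Trim24, rose, with a median of -1.87. Over all tested genes 0.168% rose and 0.219% fell. Trim24, a co-regulator of nuclear receptors, had 56.8 and 24.6 CPM in CR, against 12.02 and 8.89 CPM in AL, and its place in that list can be questioned. Hsd3b5, a 3-ketosteroid reductase of male liver (chr3:98618634-98630252, minus strand, GRCm38), had 5.11 and 2.99 CPM in CR, against 311 and 196 CPM in AL. Both CR libraries were far below both AL libraries (-5.97 ± 0.85, adjusted p = 0.00358), and the call held without each library in turn. Nudt7, a hydrolase of coenzyme A in peroxisomes, had 67.3 and 85.0 CPM in CR, against 1118 and 482 CPM in AL (-3.39 ± 0.55, adjusted p = 0.0123). C9, which completes the pore of complement, had 88.8 and 141 CPM in CR, against 421 and 522 CPM in AL (-2.04 ± 0.41, adjusted p = 0.0332).

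On the female-biased side the CR libraries parted. Cux2, a repressor typical of female liver, had 11.3 and 1.46 CPM in CR, against 0.055 and 0 CPM in AL. The AL libraries held 2 of its reads in all, so the ratio of CR to AL was 151, with a 95% counting interval of 41.2 to 1259 (exact, counting error only), and its adjusted p was 0.00358. Fmo2, Slco1a4, Cyp39a1 and Cyp17a1 were raised in both CR libraries. Slco1a4, an uptake carrier of organic anions, had 53.9 and 28.7 CPM in CR, against 6.68 and 7.03 CPM in AL (2.59 ± 0.46, adjusted p = 0.0237). Cyp17a1, a steroid hydroxylase, had 15.4 and 11.1 CPM in CR, against 1.73 and 2.05 CPM in AL (2.82 ± 0.59, adjusted p = 0.0379). Another set was high in CR library 1 alone. Cyp2b9 had 165 and 2.86 CPM in CR, against 2.45 and 2.17 CPM in AL. Cyp2b13 had 106 and 0.465 CPM in CR, against 0.247 and 0.703 CPM in AL, and Slc22a26, of the organic anion carriers, had 38.8 and 0.398 CPM in CR, against 0.522 and 0.256 CPM in AL. CR library 2 was thus near the AL level for these 3 genes, and the calls of all 3 were lost without CR library 1 (log2 fold changes 0.30, 0.13 and -0.07).

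The same split showed in whole lists. For the female-biased genes the median of log2 CPM over the AL mean was 4.20 in CR library 1 and 0.61 in CR library 2. In the 10 CR libraries of the other times it lay between 2.90 and 4.37, so CR library 2 was below all of them. For the male-biased genes it was -3.59 in CR library 1 and -1.28 in CR library 2, where 9 of the other 10 CR libraries spanned -4.34 to -3.18 and CR library 2 of ZT18 stood at -1.23. CR library 1 alone against the AL pair gave 15 of 31 female-biased genes called higher and 9 of 35 male-biased genes called lower, at 0.349% of all tested genes. CR library 2 alone gave 2 female-biased genes higher and 3 male-biased genes lower, at 0.665% of all tested genes. These 2 fits share the AL libraries, and the lone CR library is assumed to vary like the other groups. The shares of all tested genes given for fits with a lone CR library, here and below, count calls in both directions. The difference between the CR libraries themselves has no replicate and was not tested.

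**Figure D2:**
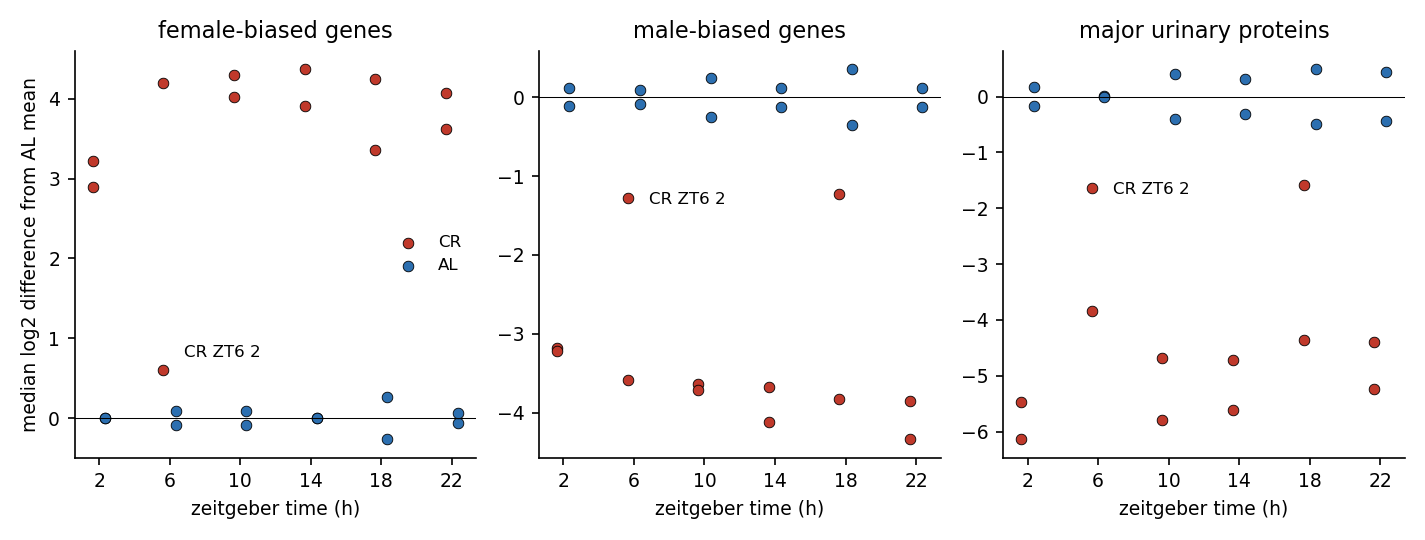
Each point is 1 library, red for CR and blue for AL; the vertical axis gives the median over the tested genes of a list of log2 CPM minus the mean of the AL libraries of the same time, and the horizontal axis the zeitgeber time in hours. CR library 2 of ZT6 sits at 0.61, -1.28 and -1.63 for the female-biased, male-biased and major urinary protein genes, where CR library 1 sits at 4.20, -3.59 and -3.85.

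The major urinary proteins, pheromone carriers secreted by the liver of male mice, lay below AL at ZT6 in the fit for 18 of 18 tested genes. Of these, 2 were called. Among all tested genes, 7753 of 15490 lay below AL and 0.219% were called lower. Mup17 had 22.4 and 44.2 CPM in CR, against 563 and 496 CPM in AL (-3.99 ± 0.87, adjusted p = 0.0431). Mup16 had 6.11 and 11.8 CPM in CR, against 79.2 and 84.3 CPM in AL (-3.18 ± 0.65, adjusted p = 0.0354). Mup20, known as darcin, had 252 and 2468 CPM in CR, against 7710 and 6466 CPM in AL, and Mup7 had 8.79 and 182 CPM in CR, against 185 and 459 CPM in AL, both without a call. For these last 2 genes CR library 1 was far below CR library 2. The list's median log2 fold change was -2.40, or -2.16 with Mup4, which had no read in CR, at its bound. Members of this cluster are near copies: 78.1% of the 50-base words of Mup17 transcripts and 91.7% of those of Mup16 occur in other genes, so reads may be split or shared among them.

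Among enzymes of drug and steroid metabolism, 4 of 43 phase I genes rose, Por, Cyp2b9 and Cyp2b13 among them, and none fell. The list's median log2 fold change was 0.11. For this and the next 2 lists, the share over all tested genes was 0.168% called higher and 0.219% called lower. Cyp39a1, which hydroxylates 24-hydroxycholesterol on the way to bile acids, was the 1 call among 24 bile acid genes, at 26.1 and 17.3 CPM in CR, against 4.70 and 4.99 CPM in AL (2.16 ± 0.44, adjusted p = 0.0338). Cyp7a1, the rate-limiting enzyme of bile acid synthesis, had 36.1 and 20.5 CPM in CR, against 17.4 and 27.6 CPM in AL, and the diets overlapped. Sult2a8, a sulfotransferase of bile acids in mouse, was the 1 call among 35 conjugation enzymes, at 107 and 133 CPM in CR, against 576 and 342 CPM in AL (-1.93 ± 0.43, adjusted p = 0.0477). Cyp2a22 rose in CR library 1 alone, with 132 and 1.86 CPM in CR, against 1.68 and 0.895 CPM in AL. A pair of Slc22 carriers fell. Slc22a28 had 2.26 and 0.398 CPM in CR, against 26.3 and 13.4 CPM in AL, and Slc22a30 had 39.7 and 13.3 CPM in CR, against 155 and 99.2 CPM in AL. Their relative Slc22a26 moved the other way, in CR library 1 only.

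Other calls fell outside those groups. St3gal5, which makes the ganglioside GM3, had 30.1 and 160 CPM in CR, against 8.83 and 9.65 CPM in AL (3.36 ± 0.56, adjusted p = 0.0136). Both CR libraries were above both AL libraries, CR library 2 by far the most, and without it the adjusted p was 0.129. Slc16a5, of the monocarboxylate carrier family, had 13.6 and 10.4 CPM in CR, against 1.02 and 1.02 CPM in AL (3.55 ± 0.64, adjusted p = 0.0238). Irf5, a transcription factor of innate immunity, had 2.34 and 5.05 CPM in CR, against 29.4 and 20.97 CPM in AL (-2.76 ± 0.51, adjusted p = 0.0246). Of 20 Kupffer cell markers, genes of the resident macrophage, none was called, 17 of 20 lay below AL, and their summed level was 230 and 308 CPM in CR, against 406 and 425 CPM in AL. Their part in the fall of Irf5 was not tested. Sdf2l1, of the endoplasmic reticulum, had 6.53 and 9.76 CPM in CR, against 53.3 and 45.1 CPM in AL (-2.59 ± 0.50, adjusted p = 0.0271). It was the 1 call among 26 genes of the unfolded protein response, whose median was -0.65, where 0.219% of all tested genes fell. Hspa5, the main chaperone of that response, had 220 and 265 CPM in CR, against 267 and 172 CPM in AL. Sucnr1, the receptor for succinate, had 9.79 and 4.18 CPM in CR, against 41.3 and 18.3 CPM in AL. Cela1, an elastase, had 16.7 and 10.5 CPM in CR, against 90.2 and 63.9 CPM in AL. Tuba1b, an alpha tubulin, had 28.4 and 22.9 CPM in CR, against 124 and 70.1 CPM in AL, but 75.1% of its 50-base words occur in other genes. The libraries carry no strand, and 25 of the 60 genes overlap another annotated gene, Irf5 and Por among them, so that reads of overlapping genes cannot be separated.

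**Figure D3:**
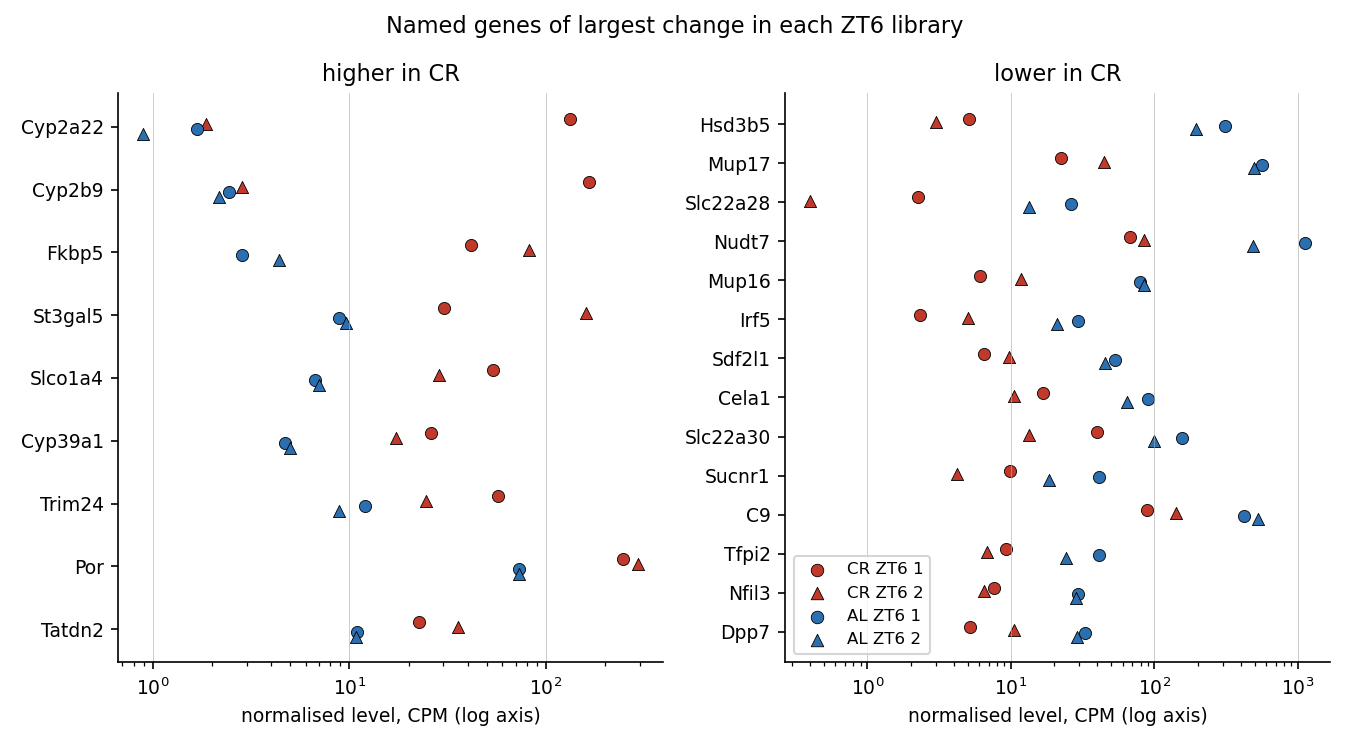
Level in CPM, on a log axis, of the named genes of largest change in the 4 ZT6 libraries; red marks are CR, blue marks AL, circles replicate 1 and triangles replicate 2. Por, Nfil3 and C9 separate by diet with close replicates, whereas Cyp2a22 and Cyp2b9 are high in CR library 1 alone.

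CR library 2 had a pattern of its own in cholesterol synthesis. Over the 27 listed genes the fit of all 4 libraries called none, with a median log2 fold change of -0.52. By library, the median of the list relative to the AL mean was 0.06 in CR library 1 and -2.18 in CR library 2. Sqle, squalene epoxidase, had 38.8 and 3.65 CPM in CR, against 98.4 and 43.7 CPM in AL. Msmo1, a sterol demethylase, had 89.5 and 8.30 CPM in CR, against 193 and 105 CPM in AL. CR library 2 was more than 10-fold below the AL mean in both, while CR library 1 lay just under the AL range. Hmgcs1, which makes HMG-CoA for the pathway, had 327 and 49.3 CPM in CR, against 346 and 251 CPM in AL, and Insig1, a sterol sensor partner that SREBP2 raises, had 173 and 16.9 CPM in CR, against 192 and 144 CPM in AL. For these 2 genes CR library 1 was at the AL level. Insig2, its paralog, went the other way, at 83.5 and 424 CPM in CR, against 199 and 126 CPM in AL. With CR library 2 as the only CR library, 13 of the 27 genes were lower than AL and none higher, at a background of 0.665% called genes. With CR library 1 alone none of the 27 was called. Set against the mean diet difference of the other 5 times, 17 of the 27 were lower in CR library 2 (background 0.581%), among them Sqle (difference -4.70, adjusted p = 0.00157) and Msmo1 (-4.90, adjusted p = 0.000945). Hmgcs1, Insig1 and Insig2 were picked after their values were seen.

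The promoter of Hmgcs1 is shown for its sterol element. It (chr13:119690101-119690400, plus strand, RefSeq, GRCm38.p6, the same window around the start) holds, in capitals, the letters TCACCCCAC, or GTGGGGTGA on the other strand, at which SREBP factors bind.
Hmgcs1: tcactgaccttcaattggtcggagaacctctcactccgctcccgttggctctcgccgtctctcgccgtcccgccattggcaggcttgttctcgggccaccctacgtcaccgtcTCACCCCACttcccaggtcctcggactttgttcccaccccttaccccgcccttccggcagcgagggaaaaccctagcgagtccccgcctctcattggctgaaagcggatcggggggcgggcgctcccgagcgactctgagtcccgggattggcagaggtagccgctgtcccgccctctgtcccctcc
The element begins 137 bases before the start. It was found in 1 of 19 cholesterol genes with a promoter in the table and in 0.614% of all 27025 genes, and was searched for only after the values were seen.

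With CR library 2 alone, 2 of 25 lipogenesis genes were lower than AL and 2 of 43 fat oxidation genes higher, at a background of 0.665%. Single genes of several lists follow, of which Srebf1, Acss2 and Cebpd were picked after their values were seen. Srebf1, which drives fat synthesis, had 160 and 17.5 CPM in CR, against 188 and 192 CPM in AL, and Acss2, which activates acetate, had 79.9 and 8.70 CPM in CR, against 93.8 and 65.1 CPM in AL. Both were lower than AL with CR library 2 alone (-3.44, adjusted p = 0.00246, and -3.19, adjusted p = 0.0248). Cidec, a lipid droplet protein, had 0.837 and 43.4 CPM in CR, against 1.35 and 0.384 CPM in AL. Cdkn1a, the cell cycle inhibitor p21, had 0.167 and 29.4 CPM in CR, against 1.18 and 4.16 CPM in AL. Each was high in CR library 2 alone. Ehhadh, a peroxisomal enzyme of fatty acid oxidation, had 128 and 390 CPM in CR, against 90.9 and 35.6 CPM in AL. Mat1a, which makes S-adenosylmethionine, had 2434 and 9898 CPM in CR, against 1438 and 983 CPM in AL, above both AL libraries in both CR libraries. Over the 24 glucocorticoid targets, the median relative to the AL mean was 1.14 in CR library 2 and 0.13 in CR library 1. Cebpd, a transcription factor of that list, had 3.68 and 18.5 CPM in CR, against 2.64 and 4.35 CPM in AL.

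CR library 1, for its part, held skeletal muscle messengers. Acta1, the actin of skeletal muscle, had 21.8 and 0.664 CPM in CR, against 0.66 and 0.895 CPM in AL. Mylpf, a myosin light chain of fast muscle, had 7.45 and 0.398 CPM in CR, against 1.24 and 1.28 CPM in AL, and Ckm, the creatine kinase of muscle, had 2.01 and 0 CPM in CR, against 0.0825 and 0.0639 CPM in AL. Myh4, a fast myosin, had no read in any of the 4. The whole list of 10 tested markers of pancreas, fat and muscle summed to 53.7 and 13.8 CPM in CR, against 98.2 and 66.7 CPM in AL, where Cela1 made up most of the AL sum. Whether these traces bear on other genes of CR library 1 was not tested.

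**Figure D4:**
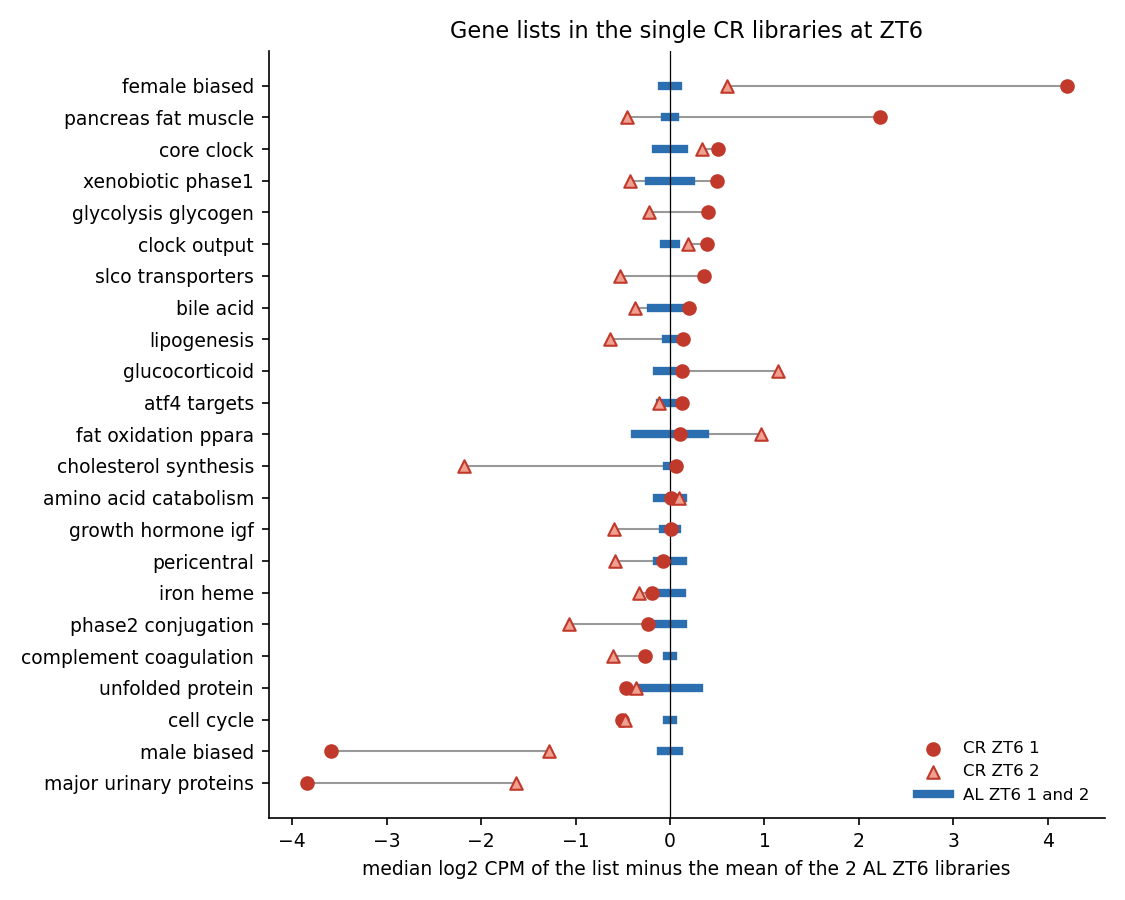
For each gene list with at least 1 call in any of the 3 fits, the horizontal axis gives the median of log2 CPM minus the mean of the 2 AL ZT6 libraries, for CR library 1 (filled circles) and CR library 2 (open triangles); blue bars span the AL libraries. The medians of the CR libraries lie far apart for female-biased genes (4.20 and 0.61) and cholesterol synthesis (0.06 and -2.18). For core clock genes the 2 medians are close (0.51 and 0.34), but single genes parted. Gene by gene, log2 CPM of CR library 1 minus CR library 2 had a median of 0.76 over that list, against 0 over all tested genes.

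Many lists held no call. The 20 gluconeogenesis genes had a median log2 fold change of 0.15, the 8 urea cycle genes 0.39, the 42 genes of amino acid catabolism 0.07, the 25 lipogenesis genes -0.08 and the 43 fat oxidation genes 0.60. Cyp4a14, a target of the fatty acid receptor PPARA, had 473 and 3635 CPM in CR, against 231 and 24.6 CPM in AL, above AL in both CR libraries yet with a spread too wide for a call (adjusted p = 0.224). Igf1, the growth factor made in response to growth hormone, had 457 and 465 CPM in CR, against 575 and 512 CPM in AL, a log2 difference of -0.24 ± 0.37. The 80 ribosomal protein genes had a median of 0.11, the 46 translation factors 0.10, the 74 nuclear genes of the respiratory chain -0.34 and the 31 proteasome genes -0.30. Acute phase genes had -0.41 over 27 genes and interferon-stimulated genes -0.48 over 35. Markers of other cells gave no call in stellate cells and fibroblasts (20 genes, median 0.65), endothelium (20, 0.00), bile ducts (10, 0.11), lymphocytes (19, -0.54) or neutrophils (8, -0.84, or -0.44 with the 3 that had no read in 1 diet at their bound). A missing call with 2 libraries a group does not show that a gene is alike in both diets.

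The genes called at ZT6 moved mostly the same way at other hours. Of the 60, 59 had the same sign on the mean of the other 5 time points, against 58.6% of all tested genes, and 49 had it at each of the 6 times. On that mean, 51 of the 60 were also called, all with the same sign, against 10.6% of all genes. Hsd3b5 differed by -6.08 ± 0.39 there, beside -5.97 at ZT6. Fkbp5 differed by 1.46 ± 0.19, beside 4.10 at ZT6. For a few genes the mean of the other times was near 0: Nfil3 (-0.01 ± 0.17), Tuba1b (0.05 ± 0.17), Tatdn2 (0.01 ± 0.13), Rexo4 (0.06 ± 0.14) and Asb13 (-0.14 ± 0.13). Such a mean can hold differences of both signs. The log2 difference in mean level of Nfil3 was 0.38 at ZT2, -1.23 at ZT10, 0.92 at ZT14, -0.69 at ZT18 and 0.66 at ZT22, and that of Tuba1b lay between -0.70 at ZT10 and 0.69 at ZT14. The test of the difference between ZT6 and the other times called 0 genes with edgeR, 1515 having an unadjusted p below 0.05. limma-trend called 0 as well, and DESeq2 called 32, 19 higher and 13 lower at ZT6. The smallest edgeR adjusted p was 0.215, for Fkbp5, whose difference was 2.64. No gene is therefore called particular to ZT6 by edgeR. With CR library 2 as the only CR library, 90 genes were called for that difference, 18 higher and 72 lower, and with CR library 1 alone 1 was, Dbp.

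**Figure D5:**
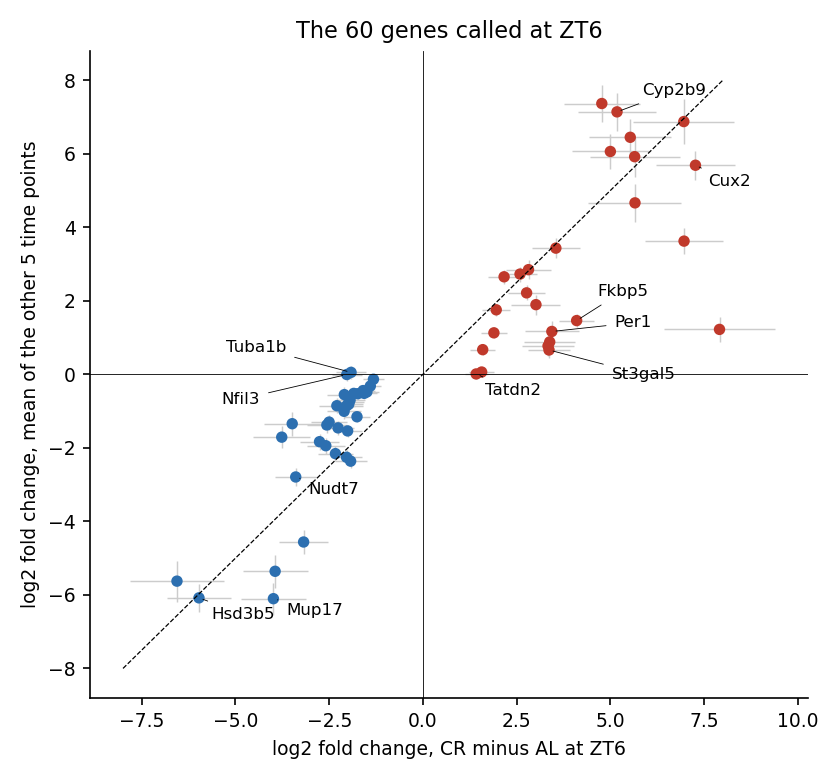
The 60 genes called at ZT6, with the log2 fold change at ZT6 on the horizontal axis and the mean of the other 5 time points on the vertical axis; bars are SE, red is higher and blue lower in CR at ZT6, and the dashed line marks equal change. Hsd3b5 lies on the line, Fkbp5, Per1 and St3gal5 lie below it, and Nfil3 and Tuba1b sit near 0 on the vertical axis.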

How the data were processed

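Per the labels, polysome-associated poly(A) RNA was sequenced without strand. The values deposited by the authors are raw whole-number counts for each gene, without normalization. The submitters' processing notes name FastQC, HTSeq, DESeq2 and GRCm38.p5, with no version and no aligner given in the sources used here. Of 52636 genes, 52489 received a symbol from the GENCODE annotation of GRCm38. Counts were tested with edgeR 4.0.16 (R 4.3.3; TMM, filterByExpr) in 1 model of all 24 libraries with a mean per diet and time, so that the 4 ZT6 libraries shared the spread of the other 20. CPM used TMM-scaled library sizes. ZT6 was also set against the mean of the other 5 times, and gene lists got counts and medians with no test. Ribosomal RNA reads were those in 363 features. The simulated counts used to test the procedure gave no value printed here.

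Named are the called genes of largest change with a mean of at least 10 CPM and no overlap, up to 4 called members per list, clock genes, the 4 uncalled genes of smallest p, the 8 genes that part the CR libraries most, and up to 3 members of lists with no call. Alb, Mt1, Tat, Cyp7a1, Hspa5, Igf1, Cyp4a14, Mup20, Mup4, Mylpf, Ckm, Acta1, Myh4, Cebpd, Srebf1, Acss2, Insig1, Insig2, Hmgcs1, Tatdn2, Rexo4, Asb13 and genes below 10 CPM fell outside the rule or were singled out after their values were seen, and some genes the rule names are not reported here. Members and lists were chosen with earlier results of these data known. Alternatives were other scalings and filters, DESeq2 1.42.0, limma-trend 3.58.1, ribosomal RNA as a covariate or left out, fewer libraries, a 1.5-fold threshold, a replicate block, and leaving out libraries. The fit without CR library 2 of ZT18 and the mean of the other times were chosen after seeing the data. Intervals cover counting error only.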

Additional observations from a re-analysis of the deposited data

How the results depend on the processing

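All 60 genes kept their sign under every alternative that gave them a value, except Slc22a26 without CR library 1. The number called, 60, became 10 (6 higher, 4 lower) without a composition factor, which moved the median of all genes by -0.46, 439 without a low-count filter, 320 with DESeq2, 7 with the ribosomal RNA covariate, 18 in the 12 libraries of the light phase and 6 at a 1.5-fold threshold. Leaving out single libraries gave 2 to 103 calls: 103 without CR library 1, 54 without CR library 2, 2 without AL library 1 and 48 without AL library 2. Limma-trend called 86 (25 higher, 61 lower) and the 4 libraries alone 82 (40 higher, 42 lower). For the difference from the other times, 0 calls became 164 without the filter and 32 with DESeq2, and lay between 0 and 90 with libraries left out. The cause of these changes was not tested.

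Across genes, same-numbered CR and AL libraries of ZT6 showed no shared deviation from their group means (correlation -0.03). Whether same-numbered libraries were handled together cannot be told from this value. A replicate block called 71 genes over 24 libraries and 69 over the 4, 54 and 31 of them among the 60.

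Some uncalled genes changed sign. Without a composition factor the log2 fold change was -0.073 for Cyp7a1, -0.36 for Hspa5 and -0.35 for Tat, and with the ribosomal RNA covariate -0.10 for Hspa5 and 0.11 for Igf1. With libraries left out it ranged from -3.19 to 0.0065 for Acss2, -0.19 to 4.84 for Acta1, -0.49 to 0.11 for Alb, -0.30 to 1.13 for Arntl, -3.93 to 3.65 for Cdkn1a, -0.12 to 5.84 for Cidec, -4.46 to 4.66 for Ckm, -2.003 to 3.18 for Cyp26a1, -0.13 to 0.70 for Cyp7a1, -1.57 to 4.38 for Hamp2, -2.60 to 0.13 for Hmgcs1, -0.14 to 0.50 for Hspa5, -3.32 to 0.042 for Insig1, -0.96 to 1.38 for Insig2, -1.65 to 2.56 for Mylpf, -1.34 to 0.31 for Nr1d1, -1.52 to 0.52 for Per2 and -0.57 to 0.60 for Tat. The called Slc22a26 ranged from -0.072 to 6.52.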

Other observations

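Further genes called at ZT6 belong to no list described above. Higher in CR were Itga6, an integrin subunit, with 2.18 and 1.06 CPM in CR against 0.165 and 0.128 CPM in AL, and Ppl, the plakin periplakin, with 12.8 and 9.43 CPM in CR against 0.742 and 1.53 CPM in AL. Vipr1, a receptor for vasoactive intestinal peptide, had 11.05 and 14.9 CPM in CR against 4.07 and 4.54 CPM in AL. Lower in CR were Slc46a1, the proton-coupled folate carrier, with 15.6 and 11.7 CPM in CR against 54.6 and 36.2 CPM in AL, and Tram1, of the protein translocation channel, with 46.9 and 38.6 CPM in CR against 164 and 89.3 CPM in AL. Dpp7, a lysosomal peptidase, had 5.19 and 10.4 CPM in CR against 32.7 and 29.1 CPM in AL. Tfpi2, a protease inhibitor, had 9.21 and 6.84 CPM in CR against 41.4 and 24.3 CPM in AL. In all 7 genes the diets did not overlap, as in 58 of the 60 called genes and in 41.8% of all tested genes. The calls came from the same libraries, so this is no separate evidence.

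The long noncoding RNA Gm12718 had 2 reads in CR and 463 in AL over the libraries of each diet, a ratio of AL to CR of 120 with a 95% counting interval of 33.1 to 996. A930033H14Rik had 23 reads in CR and 0 in AL, so its level was at least 14.8-fold higher in CR, with the floor at 3 counts over the group. Of the genes that parted the CR libraries most, Hamp2, a hepcidin gene, had 115 and 1.86 CPM in CR against 7.29 and 3.64 CPM in AL, and Cyp26a1, which breaks down retinoic acid, had 181 and 4.98 CPM in CR against 27.7 and 12.1 CPM in AL. Both were high in CR library 1 and no higher than AL in CR library 2.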
